A study of Mus musculus with 9 samples.

Results

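The mitochondrial respiratory chain passes electrons from succinate (complex II) and from other donors through complex III and cytochrome c to complex IV, and the proton gradient built on the way drives ATP synthesis by complex V. Most subunits of these complexes are encoded in the nucleus, made in the cytosol and imported, while a few subunits of complexes III, IV and V are encoded in mitochondrial DNA. The kidney tubule is rich in mitochondria because reabsorption of solutes consumes large amounts of ATP. Described here are the nuclear genes of complexes II to V in kidneys of young and old mice, picked out by their symbols: Sdha, Sdhb, Sdhc and Sdhd for complex II, the Uqcr genes and Cyc1 for complex III, the Cox4 to Cox8 genes for complex IV, the Atp5 genes for complex V, and Cycs for cytochrome c. The rule found 45 of the 13081 genes in the table: 4 of complex II, 9 of complex III, 14 of complex IV, 17 of complex V and Cycs. One of the 14 complex IV entries, Cox7c-ps1, is a transcribed processed pseudogene of Cox7c, and the other 44 are protein-coding genes. Counts of the 45 subunit genes below include this pseudogene.

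RNA came from whole kidney of mice whose genotype is wild type, with no agent given, either 3 months of age (called young, 4 libraries) or 16 months of age (called old, 5 libraries), and was sequenced from the transcript ends by an oligo(dT)-primed 3' method. Values are normalised read counts, that is reads divided by a size factor of the library. The libraries held 4486406 to 6355095 reads, and library titles carry one prefix in all young and another in all old mice, so whatever the prefix marks cannot be told apart from age. The 8 proximal tubule markers checked were all detected, with a summed level of 36820 to 38086 in young and 32528 to 41361 in old libraries.

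In old kidneys 34 of the 45 genes were lower than in young kidneys, 4 were higher and 7 did not pass the test (limma on log2 normalised count + 1, adjusted p under 0.05 over all 12667 genes tested; all 45 passed the filter on low counts). Age differences were widespread in these libraries: 30.5% of all genes tested were called lower and 29.2% higher, against 34 and 4 of the 45 subunit genes. Without the pseudogene Cox7c-ps1 the counts were 33 and 4 of 44. The same 34 genes were those in which every old library lay below every young library, an arrangement found in 25.7% of all genes tested, and 3 genes had every old library above every young library, against 23.3%. The median log2 fold change was -0.62 over the 45 genes and -0.0027 over all genes tested; with a trend in transcript length removed from each library the former was -0.32. Falls of at least 2-fold were called in 14 of the 45 genes (31.1%) and in 13.9% of all genes tested. Among the 34 genes called lower the fall, as the ratio of group means, ranged from 23.5-fold for Cox7c to 1.18-fold for Uqcrq. In whole tissue, fewer cells of a type and less RNA per cell cannot be told apart.

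**Figure D1:**
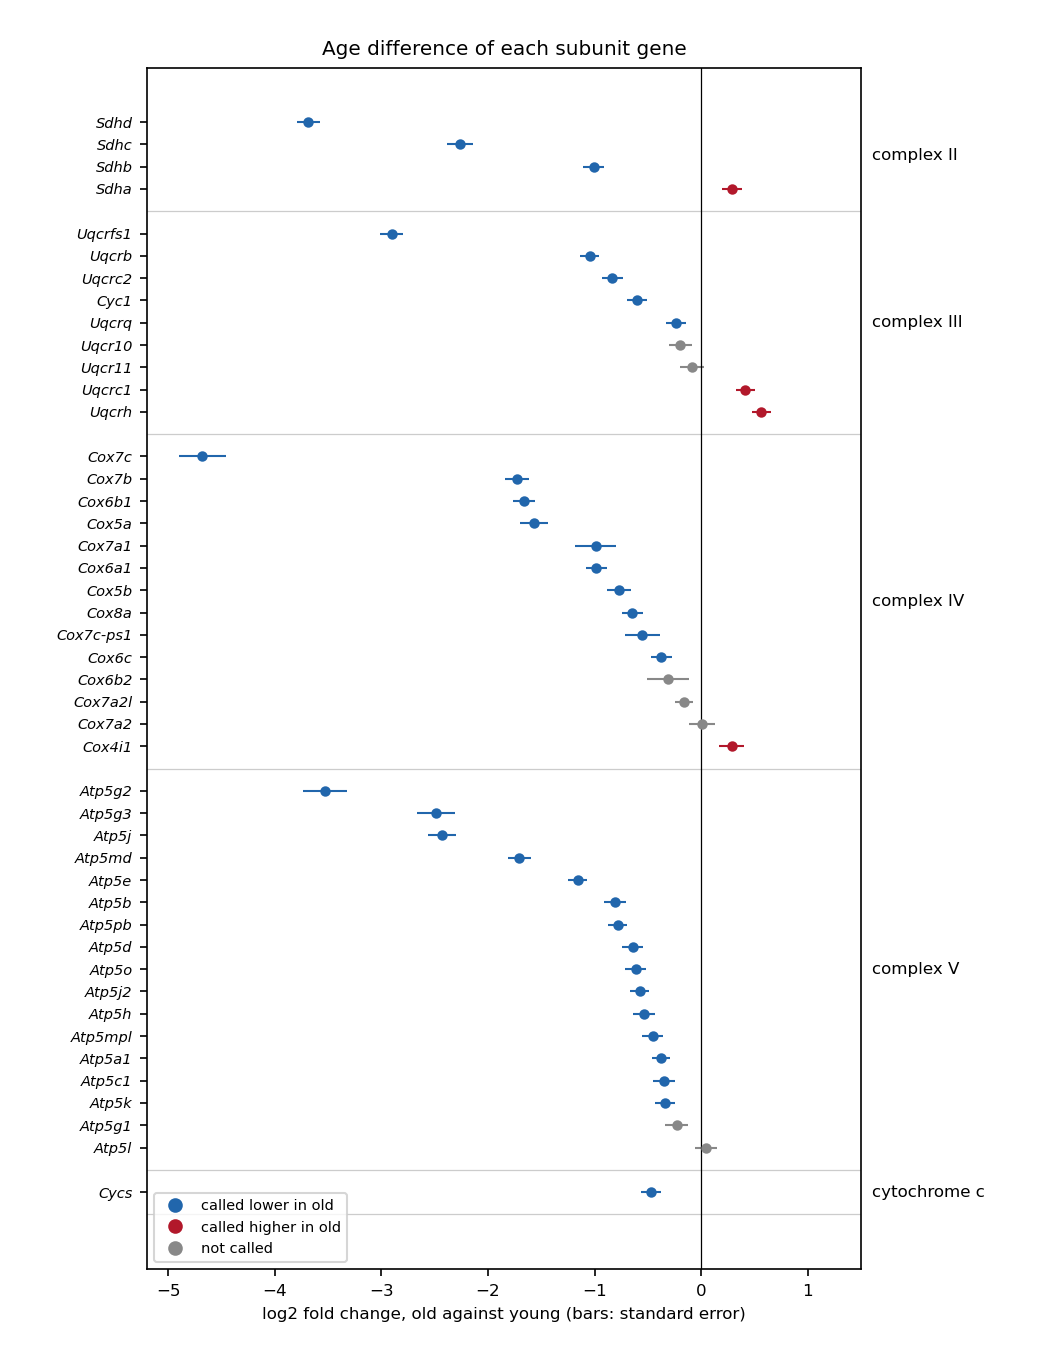
Log2 fold change of each of the 45 genes, old against young, with its standard error (n = 4 young and 5 old), grouped by complex; colours mark genes called lower, called higher or not called. Cox7c of complex IV lies lowest at -4.68 and Uqcrh of complex III highest at 0.57, and complexes II, III, IV and V each hold genes on both sides of 0.

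Complex II oxidises succinate to fumarate in the citric acid cycle and hands the electrons to ubiquinone. Of its 4 genes, 3 fell and 1 rose. Sdhd, which encodes the small membrane anchor, had 871, 885, 832 and 907 normalised counts in the young libraries and 66.0, 72.2, 66.9, 58.8 and 71.1 in the old libraries. The old values lay close together and far below every young value, a fall of 13-fold (log2 fold change -3.69 ± 0.11 SE, adjusted p = 9.66e-15). Sdhc, the large membrane anchor and partner of Sdhd, had 2214, 2497, 2437 and 2146 in young and 474, 673, 446, 421 and 436 in old kidneys. Old replicate 2 was the highest of the old libraries but was still below every young library, and the fold change was -2.26 ± 0.12 on the log2 scale (adjusted p = 2.43e-11). Sdhb, the iron-sulfur subunit that carries electrons from the catalytic site to the anchor, went from 3128, 3026, 3191 and 2920.5 to 1711, 1785, 1411, 1357 and 1403 (log2 fold change -1.01 ± 0.10, adjusted p = 8.04e-08).

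Sdha, the catalytic flavoprotein that binds succinate, changed in the opposite direction. Its counts were 983, 966, 968 and 896 in young and 1167, 1232, 1315, 1135 and 1000.4 in old kidneys. The groups did not overlap, although the lowest old library exceeded the highest young library by little, and the log2 fold change was 0.29 ± 0.09 (adjusted p = 0.0121). The call was lost when libraries were scaled to their table totals (log2 fold change 0.24, adjusted p = 0.0550; 0.00104 to 0.0550 over all alternatives). The Sdha/Sdhb log2 ratio was -1.68 ± 0.03 (SD, n = 4) in young and -0.39 ± 0.20 (SD, n = 5) in old kidneys, a difference of 1.30 (exact permutation test, two-sided, p = 0.00794, the smallest the design allows; adjusted p = 0.0136 over 12 pairs). Every old library exceeded every young one in Sdha and lay below in Sdhb, so the Sdha/Sdhb permutation p was fixed in advance. That p-value adds no support beyond the single genes. The 2 membrane anchors also differed from each other, with a Sdhc/Sdhd log2 ratio 1.43 higher in old kidneys (exact permutation p = 0.00794, adjusted p = 0.0136). Among the 4 assembly factors of complex II, 3 were called lower and 0 higher (30.5% and 29.2% over all genes tested). The lowest fold change among them was that of Sdhaf4, which binds the flavinylated catalytic subunit (183 ± 30.0 in young, 42.5 ± 18.7 in old; log2 fold change -2.18 ± 0.25, adjusted p = 4.60e-07). Sdhaf3, an iron-sulfur maturation factor, was called lower with overlapping groups (29.6 ± 4.78 against 17.5 ± 6.19; -0.78 ± 0.28, adjusted p = 0.0237).

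The promoters of Sdhd and Sdha are shown because both genes encode subunits of one complex yet moved in opposite directions. They are the 250 bases before the annotated start, from RefSeq on GRCm38.p6, both on the minus strand, at chr9:50603850-50604099 and chr13:74350241-74350490. Capitals mark matches, on either strand, to the cores of 4 factors known to act on respiratory chain genes: NRF1 (GCGCANGC), GABPA (CCGGAAG), ESRRA (AAGGTCA) and YY1 (AAGATGGCG).
Sdhd: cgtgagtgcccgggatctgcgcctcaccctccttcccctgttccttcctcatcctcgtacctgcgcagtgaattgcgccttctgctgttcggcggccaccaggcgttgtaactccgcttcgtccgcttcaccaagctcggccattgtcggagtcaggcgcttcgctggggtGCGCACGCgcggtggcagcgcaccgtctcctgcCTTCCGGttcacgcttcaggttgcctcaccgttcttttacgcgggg
Sdha: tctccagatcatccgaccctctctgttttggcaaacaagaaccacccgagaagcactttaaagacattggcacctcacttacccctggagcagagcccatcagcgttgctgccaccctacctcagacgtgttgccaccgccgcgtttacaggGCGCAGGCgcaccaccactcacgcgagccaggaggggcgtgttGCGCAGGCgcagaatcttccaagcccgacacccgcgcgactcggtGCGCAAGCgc
The shown Sdhd stretch held 2 matches, 1 to the NRF1 core and 1 to the GABPA core, and the Sdha stretch held 3, all to the NRF1 core. The 50 bases after the start, not shown, held 1 further match in Sdhd, to the ESRRA core, and 0 in Sdha.

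Complex III takes electrons from reduced ubiquinone and gives them to cytochrome c. Of its 9 genes, 5 fell, 2 rose and 2 did not pass the test. The median log2 fold change was -0.24, which was -0.094 with mt- genes, those encoded in mitochondrial DNA, left out and turned to 0.043 with a length trend removed. Uqcrfs1, the Rieske iron-sulfur protein whose head domain moves electrons out of the ubiquinol site, had 2548, 3071, 2966 and 2589 normalised counts in young and 330.0, 466, 358, 381 and 338 in old kidneys. No old library came near the young ones, and the fall was 7.46-fold (log2 fold change -2.90 ± 0.11, adjusted p = 2.27e-13). Cyc1, the haem protein that receives electrons from the Rieske protein, fell less, from 1588, 1527, 1654 and 1609.6 to 1102, 1159.5, 979, 1112 and 911 (log2 fold change -0.60 ± 0.09, adjusted p = 1.73e-05). The Uqcrfs1/Cyc1 log2 ratio passed from 0.80 ± 0.15 (SD, n = 4) to -1.49 ± 0.16 (SD, n = 5), a difference of -2.30 (exact permutation p = 0.00794, adjusted p = 0.0136). Uqcrb, a small subunit at the ubiquinone-binding region, fell by 1.04 on the log2 scale, from 2470.2 ± 90.2 to 1199.5 ± 96.7 (SE 0.09, adjusted p = 1.11e-08). Uqcrb ranged from -1.12 to -0.61 and Cyc1 from -0.66 to -0.32 over the alternatives, with both calls kept.

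The core proteins Uqcrc1 and Uqcrc2 pair with each other on the matrix side of the complex, and they moved apart. Uqcrc1 had 1486, 1431, 1399 and 1279 in young and 1894, 2053, 1791, 1873 and 1719.6 in old kidneys, a rise in which all 5 old libraries exceeded all 4 young ones (log2 fold change 0.42 ± 0.09, adjusted p = 0.000516). Uqcrc2 had 1414, 1233, 1182 and 1171 in young and 611, 749, 796, 699.6 and 658 in old kidneys, again without overlap (-0.83 ± 0.10, adjusted p = 9.14e-07). The Uqcrc1/Uqcrc2 log2 ratio was 0.16 ± 0.08 in young and 1.41 ± 0.17 in old kidneys (SD, n = 4 and 5; difference 1.25, exact permutation p = 0.00794, adjusted p = 0.0136). As Uqcrc1 rose and Uqcrc2 fell without overlap, the permutation p of their ratio was fixed in advance and adds no separate support. Uqcrh, the acidic hinge protein that helps cytochrome c dock on the complex, rose from 3151, 2967, 3169.8 and 3145 to 5107, 4273, 4205, 5055 and 4433. It had the largest rise of the 45 genes, 1.48-fold (log2 fold change 0.57 ± 0.09, adjusted p = 3.72e-05), and its groups did not overlap. The small subunits Uqcr10 and Uqcr11 did not pass the test: Uqcr10 had 2023 ± 119 in young and 1780.0 ± 274 in old kidneys (log2 fold change -0.20 ± 0.11, adjusted p = 0.126), and Uqcr11 1724 ± 46.5 and 1640.3 ± 285 (-0.09 ± 0.11, adjusted p = 0.508). Uqcr10 was called lower with table totals (-0.25, adjusted p = 0.0451) and Uqcr11 higher with a length trend removed (0.30, adjusted p = 0.0101). Uqcrq, a further small subunit, had a small fall (3722 ± 124 to 3167 ± 253; -0.24 ± 0.09, adjusted p = 0.0304). Its call was lost in 5 of 22 alternatives. These were leaving out young replicate 1 (-0.22), young replicate 2 (-0.23) or old replicate 5 (-0.19), leaving out mt- genes (-0.094), and removing a length trend, which turned its sign (0.043).

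Of the 6 assembly factors of complex III, 2 were called lower and 3 higher, a number too small to set apart from the 30.5% and 29.2% over all genes tested. Bcs1l, the AAA protein that inserts the Rieske subunit, rose from 98.2 ± 6.60 to 159 ± 52.1 (log2 fold change 0.63 ± 0.18, adjusted p = 0.00647), with the old libraries between 116 and 228. Uqcc2, which acts in early assembly around cytochrome b, fell from 320.1 ± 13.5 to 202 ± 32.2 (-0.68 ± 0.13, adjusted p = 0.000149). Cytochrome b itself, encoded by mt-Cytb, fell from 319677 ± 9552 to 43852 ± 10004 (-2.89 ± 0.17, adjusted p = 1.21e-10), with old replicate 2 the highest old library at 61479.

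Cycs, the soluble carrier between complexes III and IV, fell from 1151, 1123, 1052 and 1017 in young to 831, 773, 904, 745 and 681 in old kidneys. The groups did not overlap, and the log2 fold change was -0.47 ± 0.10 (adjusted p = 0.000390).

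**Figure D2:**
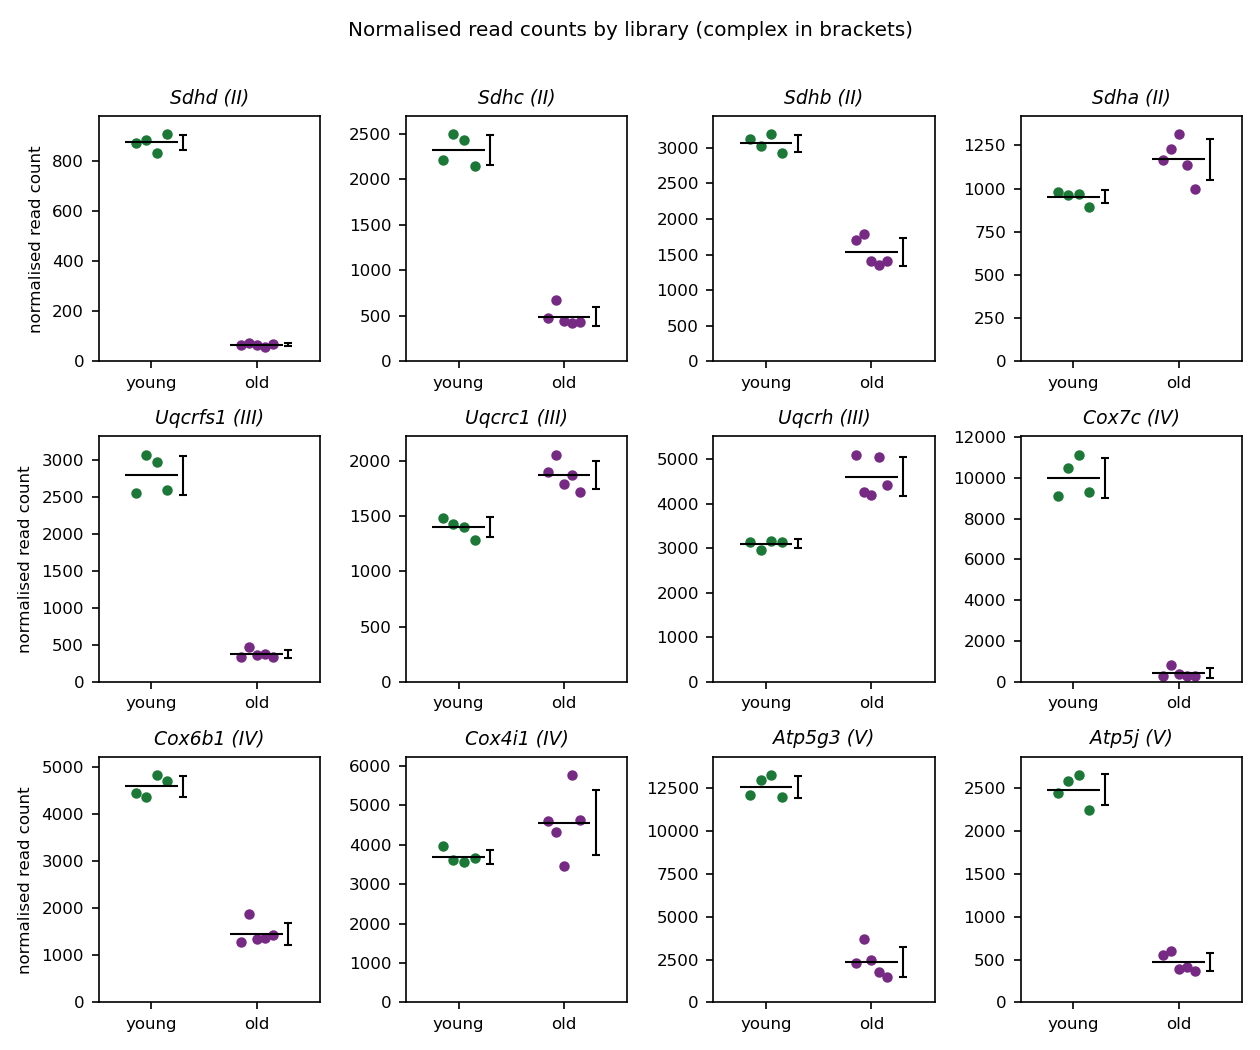
Normalised read count of 12 subunit genes in each library, with the complex in brackets; points are libraries (4 young, 5 old), horizontal lines are group means and vertical bars are standard deviations, and every axis starts at 0. Old libraries lie below all young libraries for Sdhd, Sdhc, Sdhb, Uqcrfs1, Cox7c, Cox6b1, Atp5g3 and Atp5j and above all young libraries for Sdha, Uqcrc1 and Uqcrh, while the groups overlap for Cox4i1.

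Complex IV reduces oxygen to water, with a catalytic core made in the mitochondrion and a surrounding set of nuclear subunits. Of its 14 entries, 10 fell, 1 rose and 3 did not pass the test, and the median log2 fold change was -0.71. With a length trend removed the median was -0.31 and 3 entries were called higher. Cox7c, a small membrane subunit, fell furthest of all 45 genes, from 9108, 10474, 11135 and 9296 normalised counts in young to 303, 841, 388, 292 and 302 in old kidneys. Old replicate 2 stood above the other old libraries but far below every young library. The log2 fold change was -4.68 ± 0.22 (adjusted p = 4.75e-12), and -4.96 without old replicate 2. Cox7b, another small membrane subunit, fell from 1954, 1821, 1929 and 1588 to 514, 715, 495, 552 and 485 (-1.73 ± 0.11, adjusted p = 4.00e-10). Cox6b1, which faces the intermembrane space and bridges the monomers of the dimer, fell from 4439.6, 4366, 4821 and 4698 to 1292, 1869, 1337, 1374 and 1422 (-1.66 ± 0.11, adjusted p = 2.64e-10). In both genes old replicate 2 was again the highest old library, and no old library reached a young one.

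Part of the Cox7c transcript end is repeated elsewhere: 57.6% of the 50-base windows in its last 500 bases also occur in another annotated transcript, mainly of the pseudogene Cox7c-ps1. Reads that fall in such windows can be assigned to several places or left uncounted. Cox7c-ps1 itself was counted at 85.2, 72.9, 74.5 and 98.7 in young and at 49.5, 61.3, 52.7, 69.0 and 48.8 in old kidneys (log2 fold change -0.55 ± 0.17, adjusted p = 0.00831), a call that was lost with a length trend removed (-0.25, adjusted p = 0.202). Its level is uncertain because of the same windows. Of the 23 subunit genes that share no such window, 16 were called lower and 3 higher with a median of -0.60, against 29.7% lower and 29.6% higher over all 11299 tested genes without one. Of the 22 with some, 18 were called lower and 1 higher with a median of -0.69, against 37.8% lower and 26.3% higher over all 1274 tested genes with some. Sdhd, Uqcrfs1, Atp5g3, Cox7b and Cox6b1, which fell, and Sdha, Uqcrc1 and Cox4i1, which rose, share no such window. Cox7c, Atp5g2, Atp5md, Uqcrb, Atp5j and Sdhc, which fell, share some. The part of shared sequence in the differences was not tested.

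Cox4i1, the subunit that binds adenine nucleotides on the matrix side, was the only complex IV entry called higher. Its libraries read 3959, 3606, 3554 and 3668 in young and 4598, 4326, 3469, 5767 and 4638 in old kidneys. Old replicate 3 lay below every young library, and the call (log2 fold change 0.28 ± 0.12, adjusted p = 0.0430) was lost without any one of young replicates 2, 3 or 4 or old replicates 1, 4 or 5, and with table totals, the adjusted p ranging from 3.62e-05 to 0.129 over the alternatives. The matrix-side subunits Cox5a and Cox5b both fell, but Cox5a fell further: from 3217, 2993, 3033 and 3139 to 1163, 1382, 1121, 873 and 779.7 (-1.57 ± 0.13, adjusted p = 9.59e-09), against 3039 ± 99.5 to 1801 ± 305 for Cox5b (-0.77 ± 0.11, adjusted p = 1.01e-05). Cox5a ranged from -1.67 to -1.14 and Cox5b from -0.83 to -0.37 over the alternatives, with both calls kept. The Cox5a/Cox5b log2 ratio was 0.80 lower in old than in young kidneys, as a difference of -0.80 between 0.03 ± 0.06 and -0.77 ± 0.12 (exact permutation p = 0.00794, adjusted p = 0.0136).

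Several complex IV subunits exist as alternative isoforms. Cox7a2, the isoform used in most tissues, did not pass the test (3745 ± 181 in young, 3820.1 ± 728 in old; log2 fold change 0.01 ± 0.12, adjusted p = 0.952), with the old libraries spread from 2992 to 4776 across the young range. It was called higher with a length trend removed (0.44, adjusted p = 0.00158). Cox7a1, the isoform typical of heart and skeletal muscle, had 145, 142, 153 and 158 in young and 82.5, 59.1, 111, 89.5 and 47.7 in old kidneys (-0.99 ± 0.19, adjusted p = 0.000239), and the 5 skeletal muscle markers checked (Acta1, Myh4, Ckm, Tnnt3 and Mylpf) have no row in the table. The Cox7a2/Cox7a1 log2 ratio was 4.64 ± 0.12 in young and 5.64 ± 0.50 in old kidneys (difference 1.0, exact permutation p = 0.0159, adjusted p = 0.0212). Cox7a2l, a relative of Cox7a2 that links complexes III and IV in supercomplexes, did not pass the test (1002 ± 49.3 against 897 ± 57.8; -0.16 ± 0.09, adjusted p = 0.123). It was called lower with table totals (-0.21, adjusted p = 0.0356) and higher with a length trend removed (0.20, adjusted p = 0.0424). The Cox7a2/Cox7a2l ratio did not pass the test (difference 0.17, exact permutation p = 0.190, adjusted p = 0.190).

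Cox6b2, the testis isoform of Cox6b1, had 73.7, 66.1, 65.7 and 77.9 in young and 61.3, 38.3, 48.7, 66.2 and 77.4 in old kidneys and was not called (-0.31 ± 0.19, adjusted p = 0.174), while the Cox6b1/Cox6b2 log2 ratio was lower in all old libraries (6.0 ± 0.13 against 4.65 ± 0.56; difference -1.35, exact permutation p = 0.0159, adjusted p = 0.0212). The remaining called genes of the complex, Cox6a1, Cox8a and Cox6c, had log2 fold changes of -0.98, -0.65 and -0.38. Over the alternatives Cox6a1 ranged from -1.04 to -0.55 and Cox8a from -0.70 to -0.21, with both calls kept. The call of Cox6c was lost with a length trend removed (0.048, adjusted p = 0.648). The isoform genes Cox4i2, Cox6a2 and Cox8b have no row in the table, so their pairs were not tested.

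Of the 25 genes tested on a list of complex IV assembly genes, which also holds the subunit gene Ndufa4, 16 were called lower and 3 higher (30.5% and 29.2% over all genes tested), with a median of -0.66. Cox17, the copper chaperone of the complex, had 779.6, 755, 765 and 681 in young and 23.6, 54.7, 34.5, 42.9 and 33.9 in old kidneys (-4.31 ± 0.18, adjusted p = 9.19e-13). Ndufa4, first assigned to complex I and since found in complex IV, had 2789, 2725, 2495 and 2407 in young and 206, 409, 259.6, 204 and 191 in old kidneys (-3.41 ± 0.16, adjusted p = 7.04e-12). Neither gene matches the symbol rule, and both fell by more than any complex IV member other than Cox7c. The catalytic subunits encoded in mitochondrial DNA did not move together: mt-Co1 was not called (15339 ± 1729 against 17071 ± 2842; 0.15 ± 0.13, adjusted p = 0.341), mt-Co2 fell (3232 ± 436 to 1612 ± 339.6; -1.02 ± 0.13, adjusted p = 1.93e-06), and mt-Co3 was called higher with overlapping groups (27221 ± 3746 against 36919 ± 7593; 0.43 ± 0.15, adjusted p = 0.0228).

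The promoter of Cox7c, the gene with the largest fall, and that of Uqcrh, the gene with the largest rise, are shown beside each other (RefSeq, GRCm38.p6, minus strand, chr13:86046796-86047045 and chr4:116075071-116075320, the 250 bases before the annotated start, capitals as above).
Cox7c: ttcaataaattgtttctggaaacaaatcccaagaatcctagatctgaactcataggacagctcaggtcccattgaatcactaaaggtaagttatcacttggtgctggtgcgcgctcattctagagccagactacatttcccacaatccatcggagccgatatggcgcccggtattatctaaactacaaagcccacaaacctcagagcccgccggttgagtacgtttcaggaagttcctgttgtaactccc
Uqcrh: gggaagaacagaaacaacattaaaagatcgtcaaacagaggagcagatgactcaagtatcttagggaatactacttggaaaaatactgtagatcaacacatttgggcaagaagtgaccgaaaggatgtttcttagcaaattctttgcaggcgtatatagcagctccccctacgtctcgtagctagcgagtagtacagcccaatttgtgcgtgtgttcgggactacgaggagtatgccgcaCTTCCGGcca
The Cox7c stretch held 0 matches to the 4 cores and the Uqcrh stretch 1, to the GABPA core. RefSeq promoters, each running from 250 bases before to 50 bases after a start, matched 35 of the 45 genes by symbol (38 promoters). The NRF1 core was present in 39.5% of them, against 18.8% of the promoters of all genes tested and 9.95% of all 32851 mouse promoters in the table. For GABPA the shares were 34.2%, 17.1% and 8.86%, for ESRRA 13.2%, 3.31% and 4.72%, and for YY1 5.26%, 2.98% and 1.40%. Matches of different motifs overlapped in 0 of the 38 promoters. Among the 28 promoters of genes called lower the NRF1 core was in 39.3%, among the 7 of genes not called in 28.6%, and among the 3 of genes called higher in 66.7%, numbers too small to compare. These shares describe letters in the sequence and not binding.

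Complex V makes ATP with a catalytic head in the matrix and a membrane rotor, the ring of c subunits, turned by protons. Of its 17 genes, 15 fell, 0 rose and 2 did not pass the test, and the median log2 fold change was -0.62, or -0.26 with a length trend removed. Its falls were uneven, with 5 of at least 2-fold. The 3 lowest fold changes were those of Atp5g2, Atp5g3 and Atp5j.

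The c subunit is encoded by 3 genes, Atp5g1, Atp5g2 and Atp5g3, whose proteins differ in the import sequence that is cut off and share the last 78 residues. The coding sequence of those residues is shown because it differs between the 3 genes in spite of the identical product. It is 234 bases long in each gene, taken from the annotated transcripts (GENCODE vM21, GRCm38, all on the minus strand; genes at chr11:96068852-96075670, chr15:102662864-102672352 and chr2:73908447-73911326), and capitals mark bases that differ from Atp5g1.
Atp5g1: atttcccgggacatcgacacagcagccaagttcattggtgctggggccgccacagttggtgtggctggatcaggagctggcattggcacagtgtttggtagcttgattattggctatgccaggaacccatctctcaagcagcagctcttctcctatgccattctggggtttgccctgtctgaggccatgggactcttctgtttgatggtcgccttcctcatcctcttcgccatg
Atp5g2: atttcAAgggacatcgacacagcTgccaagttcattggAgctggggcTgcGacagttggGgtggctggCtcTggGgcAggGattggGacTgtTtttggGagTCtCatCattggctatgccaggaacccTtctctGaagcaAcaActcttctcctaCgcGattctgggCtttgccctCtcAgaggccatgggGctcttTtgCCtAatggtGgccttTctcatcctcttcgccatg
Atp5g3: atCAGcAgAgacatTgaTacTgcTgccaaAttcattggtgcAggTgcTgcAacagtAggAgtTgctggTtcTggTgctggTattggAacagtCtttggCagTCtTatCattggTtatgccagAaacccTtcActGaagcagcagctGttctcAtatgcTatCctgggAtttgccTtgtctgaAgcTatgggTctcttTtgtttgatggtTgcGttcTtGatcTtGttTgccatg
Atp5g2 differed from Atp5g1 at 36 of the 234 bases (84.6% identity) and Atp5g3 at 50 (78.6% identity), with no change in the encoded residues. Reads come from transcript ends, so these differences do not show that the counts tell the genes apart.

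The 3 genes did not change alike. Atp5g3 had 12057, 12929, 13238 and 11978 normalised counts in young and 2278, 3719, 2470.4, 1778 and 1492 in old kidneys (log2 fold change -2.49 ± 0.18, adjusted p = 1.30e-09). Atp5g2 had 301, 359, 363 and 335 in young and 29.5, 35.0, 16.2, 26.1 and 41.4 in old kidneys (-3.53 ± 0.20, adjusted p = 7.48e-11), but 99.1% of the windows at its transcript end occur in other transcripts, so its counts are uncertain. Atp5g1 had 2418, 2081, 2255 and 2740.3 in young and 2089.8, 2217, 1652, 2175 and 1985 in old kidneys, with overlapping groups, and was not called (-0.23 ± 0.11, adjusted p = 0.0677; it was called lower in 5 of 21 alternatives, among them without young replicate 2, at -0.29, and without old replicate 2, at -0.27).

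Summed over the 3 genes, c subunit reads went from 15263 ± 463 in young to 4401 ± 935 in old kidneys. Atp5g3 supplied 82.2 ± 2.05% of that sum in young and 52.2 ± 8.81% in old kidneys, and Atp5g1 15.6 ± 2.12% and 47.1 ± 8.59% (SD, n = 4 and 5; reads come from transcript ends and were not divided by length). The Atp5g1/Atp5g3 log2 ratio rose by 2.26, from -2.41 ± 0.23 to -0.15 ± 0.51, and the Atp5g1/Atp5g2 log2 ratio by 3.30, from 2.80 ± 0.25 to 6.10 ± 0.39 (exact permutation p = 0.00794 and adjusted p = 0.0136 for each). The Atp5g2/Atp5g3 ratio did not pass (difference -1.04, exact permutation p = 0.0476, adjusted p = 0.0519), with old replicate 5 at the level of the young libraries.

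Atp5j, coupling factor 6 in the stalk, fell from 2448, 2590.4, 2653 and 2242 to 554, 605, 394, 413 and 367 (log2 fold change -2.43 ± 0.13, adjusted p = 2.56e-11), without overlap. Atp5b and Atp5a1 of the catalytic head fell less than Atp5j. Against the complex V median of -0.62, Atp5b fell more and Atp5a1 less. Atp5b, the beta subunit with the catalytic sites, had 5652, 5776, 5550.4 and 5568 in young and 3059, 3968, 3519, 2949 and 2765 in old kidneys (-0.81 ± 0.11, adjusted p = 2.67e-06), and its partner Atp5a1, the alpha subunit, 4630.4, 4759, 4792 and 4607 in young and 3791, 3642, 3413, 3743 and 3552 in old kidneys (-0.37 ± 0.08, adjusted p = 0.000921). Both fell without overlap, and their log2 ratio differed by 0.43, from -0.26 ± 0.03 to 0.17 ± 0.23 (exact permutation p = 0.0238, adjusted p = 0.0286). Atp5l, subunit g of the membrane part, did not pass the test, with 2006, 1556, 1756 and 1907 in young and 1958, 1717, 1609, 2123 and 1916 in old kidneys (0.05 ± 0.10, adjusted p = 0.722). It was called higher with a length trend removed (0.48, adjusted p = 0.000462). For this gene 75.2% of the end windows are shared, and the processed pseudogene Gm9712, with which it shares 16.6%, fell from 84.0 to 6.84.

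The remaining genes of complex V were all called lower with log2 fold changes from -1.71 for Atp5md, a small membrane subunit, to -0.34 for Atp5k, subunit e. They include Atp5e, the epsilon subunit of the central stalk (-1.16), Atp5pb, the peripheral stalk subunit b (-0.78), Atp5o, which ties the stalk to the head (-0.62), and Atp5c1, the gamma subunit that turns inside it (-0.35). With a length trend removed the calls of Atp5o (-0.21, adjusted p = 0.0566), Atp5c1 (-0.0033, adjusted p = 0.979), Atp5k (-0.042, adjusted p = 0.691), Atp5h (-0.11, adjusted p = 0.321), Atp5j2 (-0.19, adjusted p = 0.0668) and Atp5mpl (-0.17, adjusted p = 0.0930) were lost. Those of Atp5c1 (-0.21, adjusted p = 0.0859) and Atp5k (-0.20, adjusted p = 0.0613) were also lost with mt- genes left out. Of the 7 assembly factors and inhibitor genes tested, 5 were called lower and 0 higher, against 30.5% and 29.2% of all genes tested. Dmac2l, also named coupling factor B, fell from 83.4 ± 6.06 to 20.4 ± 4.50 (-2.0 ± 0.21, adjusted p = 1.39e-07) and Tmem70, needed to build the c ring, from 376 ± 32.5 to 131 ± 26.9 (-1.53 ± 0.14, adjusted p = 3.99e-08). The count of the mitochondrially encoded mt-Atp6 fell (37529 ± 7544 to 14822 ± 2644, log2 fold change -1.34 ± 0.15, adjusted p = 6.14e-07). That of mt-Atp8 rose (6072 ± 624 to 12199.9 ± 1853, log2 fold change 1.0 ± 0.12, adjusted p = 8.04e-07). Both counts come from reads at transcript ends, and how reads were assigned between these neighbouring genes was not tested.

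**Figure D3:**
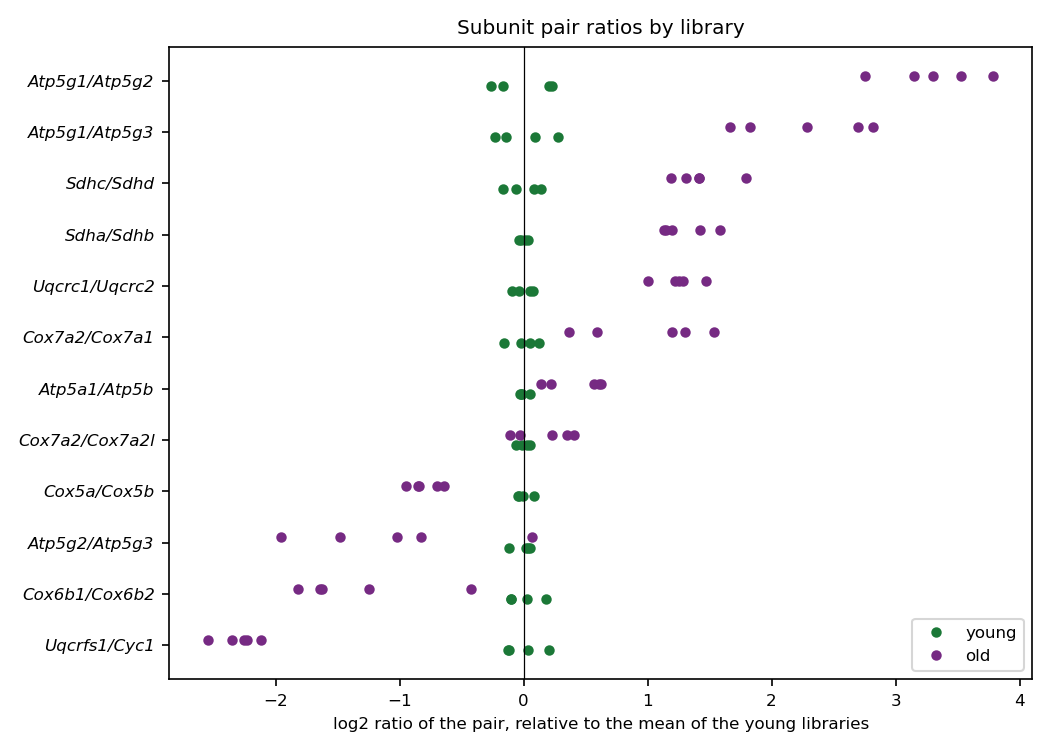
Log2 ratio of 12 pairs of subunit genes in each library, relative to the mean of the young libraries; green points are the 4 young and purple points the 5 old libraries. The groups are separate for 10 pairs and overlap for Cox7a2/Cox7a2l and Atp5g2/Atp5g3, and the largest shifts are 3.30 for Atp5g1/Atp5g2 and -2.30 for Uqcrfs1/Cyc1.

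Counts summed over a complex give weight to its most abundant transcripts. Complex II summed to 6869 to 7429 in young and 2911 to 3762 in old libraries, and the old mean was 45.2% of the young mean. For complex III the sums were 19428 to 20429 and 14807 to 17475 (81.6%), for complex IV 52167 to 55886 and 26114.5 to 33134 (54.8%), and for complex V 58417 to 59326 and 28797 to 35489 (54.3%). In no complex did the old and young ranges overlap. Without Cox7c the old mean of complex IV was 66.4% of the young mean, and without Atp5g3 that of complex V was 63.9%, so 1 abundant gene in each accounted for a sizeable part of the fall in the sum. All 45 genes together took 2.71 to 2.84% of the reads in young and 1.35 to 1.72% in old libraries. Mitochondrially encoded transcripts took 27.0 to 29.7% of reads in young and 35.8 to 38.1% in old libraries. Among the other reads, the 45 genes took 3.85 to 3.95% in young and 2.18 to 2.77% in old libraries. The 6 mitochondrially encoded subunits of complexes III to V summed to 398882 to 420748 in young and 111812 to 147527 in old libraries. These are normalised counts, mostly of mt-Cytb in young libraries. Of the 6 genes 3 were called lower and 2 higher (30.5% and 29.2% over all genes tested).

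**Figure D4:**
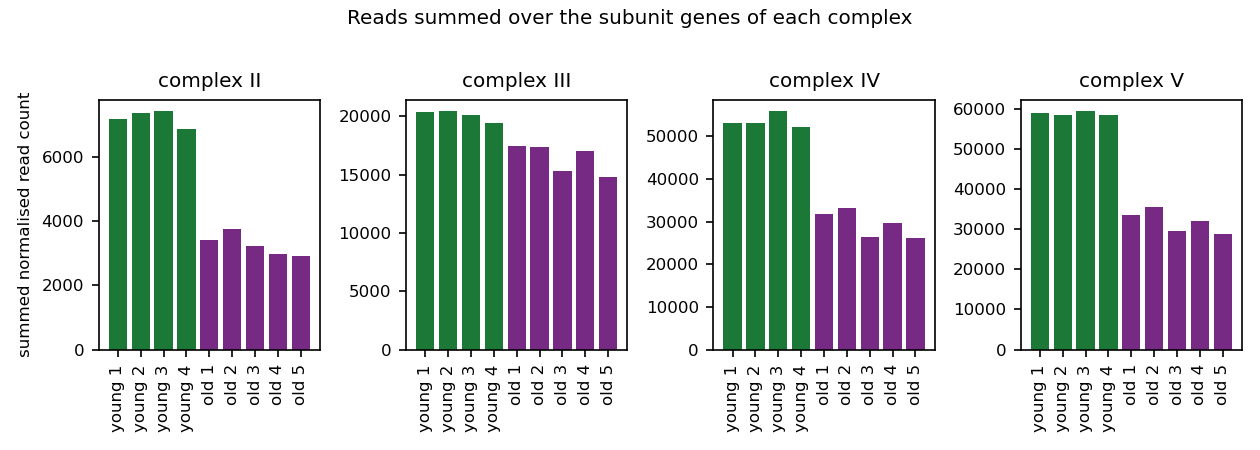
Normalised read counts summed over the nuclear genes of complexes II, III, IV and V in each of the 4 young (green) and 5 old (purple) libraries; axes start at 0. The old sums average 45.2%, 81.6%, 54.8% and 54.3% of the young sums.

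Most of the subunit transcripts are short (median 765 bases, against 2925 over all genes tested). Of all 958 tested genes under 1000 bases, 445 were called lower (46.5%) and 190 higher, and the median log2 fold change was -0.35. The 28 subunit genes under 1000 bases had 21 called lower (75%) and a median of -0.63, and the 17 longer ones had 13 called lower (76.5%) and a median of -0.60. Over all 11615 tested genes of 1000 bases or more, 29.2% were called lower and the median was 0.023. Spearman's rho between length and log2 fold change was 0.27 across all tested genes and 0.02 across the 45, as a description only, since genes of one library share its preparation. With a length trend removed from each library, 26 of the 45 were called lower (28.9% of all genes in that setting) and 8 higher (29.2%), and the median was -0.32. The median of complex III then stood at 0.04, while the directions and calls of Cox7c (-4.25), Sdhd (-3.35), Uqcrfs1 (-2.59), Sdha (0.36), Uqcrc1 (0.67) and Uqcrh (1.0) were kept. The part that length plays in the age difference was not tested further.

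**Figure D5:**
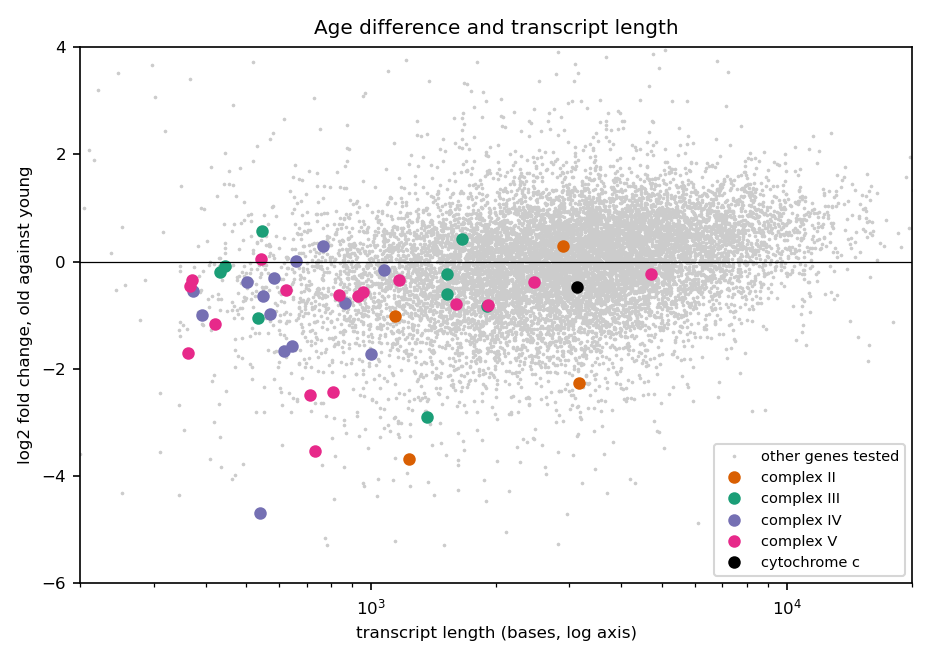
Log2 fold change, old against young, against the length of the representative transcript on a log axis, for 12573 tested genes with a gene model (grey) and for the 45 subunit genes coloured by complex; 76 genes lie outside the plotted range. Most subunit genes lie at the short end, and genes of like length can differ widely, as from -4.68 for Cox7c at 540 bases to 0.57 for Uqcrh at 547 bases.

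Of 20 transcriptional regulators of respiratory chain genes, 5 were called lower and 7 higher, close to the shares over all genes tested (30.5% and 29.2%). Ppara, a nuclear receptor for fatty acids, rose from 147 ± 17.8 to 743 ± 79.3 (log2 fold change 2.33 ± 0.11, adjusted p = 7.73e-12), and Esrra, the receptor whose core was searched above, fell from 363 ± 33.0 to 122 ± 25.7 (-1.59 ± 0.14, adjusted p = 2.02e-08). Of 12 genes of cristae shape and cardiolipin, 4 were called lower and 4 higher, also close to those shares, among them Phb2, a scaffold protein of the inner membrane (904 ± 22.3 to 356 ± 88.3; -1.38 ± 0.14, adjusted p = 9.68e-08), and Taz, the cardiolipin remodelling enzyme (122 ± 10.1 to 296 ± 18.2; 1.27 ± 0.11, adjusted p = 1.75e-08).

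Marker lists of kidney cell types were counted in the same test, in which 30.5% of all genes were called lower and 29.2% higher. Summed levels did not overlap between the ages for 4 lists: distal convoluted tubule (4 markers, 3231 to 4071 in young and 4774 to 5885 in old; 2 called lower and 2 higher), intercalated cell (5 markers, 698 to 812 and 489 to 599; 4 lower and 1 higher), endothelium (5 markers, 888 to 943 and 1180.3 to 1409.6; 3 higher) and immune cell (6 markers, 1036 to 1223 and 1298 to 1863; 3 higher of 5 tested). Of the 8 proximal tubule markers 4 were called lower and 2 higher, with overlapping sums. The sums also overlapped for principal cell (3 of 5 lower and 0 higher), fibroblast and mural cell (3 of 5 lower and 0 higher), podocyte (1 lower and 3 higher of 5), thick ascending limb (1 lower and 1 higher of 5), adipocyte (1 lower and 0 higher of 3 tested) and erythrocyte (1 lower and 2 higher of 5). In the principal cell list Aqp2, the vasopressin-regulated water channel, stood at 2267 normalised counts in old replicate 3, whereas the remaining old libraries ranged from 334 to 694. The part of cell composition in the subunit differences was not tested.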

How the data were processed

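Kidney RNA of 4 young and 5 old wild type mice was profiled with a stranded, oligo(dT)-primed 3' library kit and single reads. The authors checked reads with FastQC 0.11.7, aligned them to GRCm39 with TopHat2 2.0.10 (Bowtie 1.0.0, SAMtools 0.1.19), counted them per gene with HTSeq 0.6.1 in stranded mode and normalised them with DESeq. The deposited signal values are counts divided by a size factor per library: 100% of the values were whole multiples, within 0.01, of the value of 1 read. Reads carry no molecular identifiers, and a gene's level reflects reads at its transcript ends, so repeated ends can lose or gain reads.

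Groups follow the age in the labels, and replicate numbers only name libraries. Nothing states that libraries of one age came from separate preparations, so p-values measure the spread between these libraries. Age was tested with limma 3.58.1 (R 4.3.3; eBayes with trend) on log2(value + 1) for genes reaching 10 normalised counts in 4 or more libraries, with Benjamini-Hochberg adjustment over all genes tested; genes were called at an adjusted p under 0.05. The pseudocount makes fold changes of low genes too small. Pair ratios were tested with an exact two-sided permutation test over all 126 assignments of the 9 libraries to the ages, adjusted over 12 pairs; 3 further pairs were not tested. Errors beside levels are SD and beside fold changes SE. The test was checked on simulated data.

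Named were all complex II genes, Cyc1, Cycs, in complexes III to V the 3 called genes with the lowest fold change, all genes called higher, all genes not called, all genes of a pair, and 2 genes per pathway list by moderated t; the others are named as examples. The members, lists and pairs were chosen with earlier results of these data known. Alternatives were pseudocounts of 0.1 and 5, no filter, a mean of at least 100, TMM factors, table totals, removal of mt- genes with equal totals for the remaining genes, robust eBayes, edgeR 4.0.16 on recovered reads, DESeq2 1.42.0 on recovered reads, removal of a length or GC trend, leaving out genes that share 50-base sequences, and leaving out each library. Gene models (99.2% of 13081 genes matched), lengths and shared sequences were taken from GENCODE vM21 (GRCm38, whereas the counts used GRCm39), and promoters from RefSeq on GRCm38.p6.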

Additional observations from a re-analysis of the deposited data

Results flagged for a closer look

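In 4 of the 98 groups of libraries examined (each of the 45 genes and each complex sum, young and old), 1 library stood apart from the rest of its age group; chance alone gives about 1 in 20. Old replicate 2 was high for Cox7c (log2 level 9.72, the next library at 8.61), Sdhc (9.40, next 8.89) and Cox6b1 (10.9, next 10.5). Young replicate 2 was low for Uqcrh (11.54, next 11.62). Without old replicate 2 the log2 fold changes were -4.96 for Cox7c, -2.38 for Sdhc and -1.76 for Cox6b1, and the 3 calls were kept.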

How the results depend on the processing

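No paired analysis was made because the labels pair no young library with an old one. Of the 38 subunit genes called, 27 kept direction and call in every alternative in which they were tested (25 lower, 2 higher, Uqcrc1 and Uqcrh).

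With table totals 2 genes were called higher in place of 4 (0 in complex II, 0 in complex IV), against 26.7% of all genes in that setting. Atp5g1, Cox7a2l and Uqcr10 became called lower, where 32.1% of all genes were called lower. Atp5l (-0.0073) and Cox7a2 (-0.044), not called in either setting, changed sign. Dropping mt- genes and setting the remaining totals equal moved the median of all genes tested from -0.0027 to 0.13, and the median of the 45 to -0.47, of complex II to -1.49, of complex III to -0.094 and of complex V to -0.47, with Uqcr11 at 0.053; 31 were called lower and 4 higher (25.1% and 35.4% of all genes in that setting). With a length trend removed 8 were called higher (3 in complex IV, 1 in complex V), and the medians were -0.32 over all 45, -1.44 in complex II, 0.043 in complex III, -0.31 in complex IV and -0.26 in complex V; Cox6b2 (0.12), Cox6c (0.048), Cox7a2l (0.20), Uqcr10 (0.19), Uqcr11 (0.30) and Uqcrq (0.043) changed sign. With genes sharing sequence left out, only 23 of the 45 were tested and 16 were called lower (29.7% of all genes in that setting; 4 in complex IV, 5 in complex V), 1 was called higher in complex III, and the medians were -1.01 in complex II and -0.48 in complex IV.

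Leaving out 1 library gave 33 to 35 genes called lower and 3 to 4 higher, with 0 to 1 called higher in complex IV. Over all genes tested, 27.9 to 30.7% were called lower and 26.6 to 29.5% higher in these settings. Atp5l ranged from -0.024 to 0.098 and Cox7a2 from -0.076 to 0.092 in these settings. Of the pairs, Atp5g2/Atp5g3 passed with a pseudocount of 0.1 (-1.09, adjusted p = 0.0433) and without old replicate 5 (-1.32, adjusted p = 0.0312). Where not shown by the setting itself, the cause was not tested.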

Other observations

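Among the 34 subunit genes called lower, the highest of the 5 old values was that of old replicate 2 in 20 genes (58.8%), of old replicate 1 in 7, of old replicates 3 and 4 in 3 each and of old replicate 5 in 1. Over all 3864 genes called lower, old replicate 2 was the highest old library in 41.1%.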
